A study of Mus musculus with 16 samples.

Results

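Acetylation of histone H3 at lysine 27 (H3K27ac) was compared between late Th2 cells in which Bcl11b had been deleted (late KO) and late Th2 cells that kept it (late WT). The 4 H3K27ac ChIP-seq libraries labelled late KO 1, late KO 2, late WT 1 and late WT 2 were taken, out of 16 libraries in the series. The other libraries are 4 of H3K27ac in early Th2 cells and 8 of DNase-seq, an assay of open chromatin, and they enter only where they bear on the late comparison.

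All groups came from C57BL/6 mice that carry floxed Bcl11b alleles and CreERT2, a Cre recombinase that 4-hydroxytamoxifen (4-OHT) switches on. The labels name naive CD4 T cells and also a sort for CD4+ cells with high CD44, a marker of activated cells. Late KO cells had a Th2 culture of 4 days without 4-OHT, 1 day of rest with IL-2, and a second Th2 culture of 4 days with 4-OHT. Late WT cells went through the same 3 steps with no 4-OHT at any point. Early KO and early WT cells had a single Th2 culture of 4 days, with 4-OHT and without it. Cells that kept Bcl11b never received 4-OHT, so the deletion and the exposure cannot be told apart. Each group had 2 libraries of each assay, and nothing says that they came from separate cultures, so p-values cover no more than the variation between these libraries, part or all of which may be technical.

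Bcl11b is a zinc finger transcription factor that commits progenitors to the T lineage and stays expressed in mature T cells. The title of the series presents it as a partner of GATA3, the factor that sets up the Th2 fate and its cytokines IL-4, IL-5 and IL-13, and asks about the Th1 and Th2 programmes. The Th1 fate rests on the T-box factor T-bet (gene Tbx21), with IFN-γ as its main cytokine. The related T-box factor Eomes was listed with the Th1 genes, though it also marks CD8 T cells. H3K27ac marks active promoters and enhancers, and long stretches of it lie over genes that define a cell type.

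Each library came as a list of islands, stretches of the mm9 genome in which the caller found enrichment, with a score for each island. The authors' score served only to rank islands within a list, as a percentile where 100 is the strongest. Late KO lists held 27722 and 29459 islands over 111.7 and 100.9 Mb, and late WT lists 26611 and 30676 islands over 102.1 and 102.8 Mb. The files hold no read counts, so the depth is unknown, and where an island is missing only its absence from that list is known. In such bulk samples fewer acetylated cells and less acetylation per cell cannot be told apart. Islands over Bcl11b do not check the deletion, since the mark can lie over a gene whose coding part has been removed.

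Genome-wide, the kb of each 10-kb bin covered by islands were compared on the log2(kb + 0.5) scale with limma, over the 39126 bins covered in at least 2 of the 8 H3K27ac lists. A bin was called at a Benjamini-Hochberg adjusted p under 0.05. Between late KO and late WT 6.75% of bins were called (2642 bins), 3.99% higher and 2.76% lower in late KO. Of the bins that rose, 1193 were at 0 in both late WT lists, and of those that fell 788 were at 0 in both late KO lists. Only 337 higher and 271 lower bins were covered in all 4 late lists. Without late KO 2 1027 bins rose, and without late WT 2 542 bins fell, against 1561 and 1081 with all libraries. Where a group was at 0 in both lists its spread was set by the floor, so the p draws its error from the early groups and from all other bins, and the kb are given without a fold.

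Loci of 12 Th1, 18 Th2 and 23 T-lineage genes were then read, each as the gene body with 10 kb on either side, widened to whole bins. The gene bodies were placed on mm9 from general knowledge, not from an annotation of that build. Their chromosomes, order and spacing were checked against a gene table of another build.

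In 3 of the 12 Th1 windows (Tbx21, Eomes and Il18r1) a bin rose in late KO cells, and in none did a bin fall. The 3 called bins were 6.82% of the 44 Th1 bins tested, against 6.75% of all bins, so the share of Th1 bins called was close to that of the genome. The Tbx21 bin passed the filter on coverage only through the late KO lists. The direction rests on these few bins: under alternatives a Th1 bin also fell, at Il12rb2 in the upper 50% of each list (log2 -3.74, adjusted p = 0.00014) and at Stat4 with the late libraries alone or without either early KO library (log2 -1.97 in each, adjusted p = 0.0113, 0.0043 and 0.00464). Other Th1 bins rose under alternatives. In the upper 50% these lay at Tbx21, from 96970001 (log2 3.52, limma adjusted p = 0.000596) and from 96980001 (log2 1.03, adjusted p = 0.00134). Fasl also held one there (log2 3.0, adjusted p = 0.00037). At equal list lengths a Ccl5 bin rose (log2 2.49, adjusted p = 0.00421), whereas in the main fit the lowest adjusted p of that window was 0.234. Cutting a list sets islands below the cut to 0 kb, so the differences in cut lists depend on the cut and on the pseudocount. Whether late KO lists alone carried these bins past the filter on coverage was not checked. The median log2 difference of the Th1 bins in the main fit was 0.02, against -0.04 over all bins.

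Tbx21 encodes T-bet, the factor that directs the Th1 fate. Islands covered 15.2 and 13.6 kb of its window (chromosome 11, 96940001 to 96990000) in late KO cells and 8.2 and 9.8 kb in late WT cells. Both late KO lists were thus above both late WT lists, by 5.4 kb on average (14.4 ± 1.1 against 9.0 ± 1.1 kb, SD, n = 2 each). Part of the difference was an island inside the placed gene body, at 96964601 to 96966800 in late KO 1 and 96964801 to 96966800 in late KO 2, where neither late WT list held one. Its bin held 2.2 and 2.0 kb in late KO and 0 and 0 kb in late WT. Since all 4 early lists were also at 0, the bin was tested only because the late KO lists cover it, and its p is not given as support. These islands were weak, at percentiles 4.0 and 11.9 of their lists, and the bin could not be tested without either late KO list, because too few lists then covered it. DNase islands lay at the same position in all 4 late DNase lists, of 2.0 and 1.4 kb in late KO and 2.6 and 1.4 kb in late WT, so open chromatin there was listed in both genotypes. The early KO window held 9.0 and 7.4 kb and the early WT window 5.4 and 5.2 kb.

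Eomes encodes a T-box factor related to T-bet that is known from cytotoxic and memory T cells. Its window (chromosome 9, 118370001 to 118410000) held 2.0 and 4.0 kb in late KO cells and 0 and 0 kb in late WT cells. The called bin held an island of 2.0 kb in each late KO list, at 118397201 to 118399200 and 118397001 to 118399000, just past the placed gene body (limma adjusted p = 0.0011). The percentiles were 9.8 and 20.9. The same stretch was marked in early cells, at 2.4 and 2.2 kb in early KO and 0 in both early WT lists, and the late and early differences did not differ in the interaction test of the same fit (adjusted p = 0.824). DNase islands there measured 2.0 and 0 kb in late KO and 2.0 and 3.6 kb in late WT.

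Il18r1 encodes the IL-18 receptor chain through which IL-18 drives IFN-γ in Th1 cells. Its window (chromosome 1, 40510001 to 40570000) held 9.0 and 6.4 kb in late KO cells and 3.2 and 3.6 kb in late WT cells. The bin at its far end held 2.6 and 2.2 kb in late KO and 0 and 0 kb in late WT (limma adjusted p = 0.00105). Of the Th1 bins called, this one rested on the strongest islands, at percentiles 50.8 and 53.0. Early KO cells held 1.8 and 2.0 kb there and early WT cells none. The neighbouring Th2 gene Il1rl1, which encodes the IL-33 receptor ST2, lies on the other side of Il18r1, and its window held 38.0 and 33.4 kb in late KO and 29.6 and 35 kb in late WT, with no bin called.

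**Figure D1:**
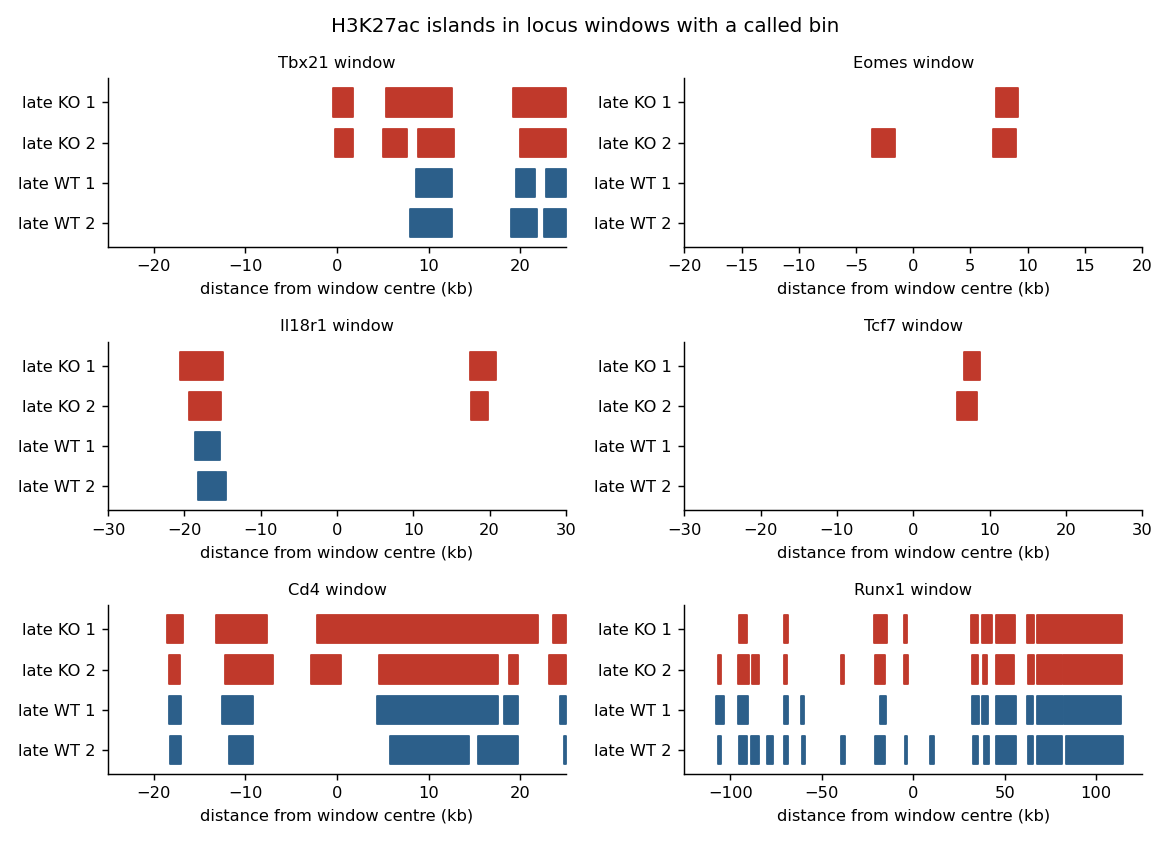
H3K27ac islands (bars) in the windows of 6 loci with a called bin, by distance from the window's centre in kb, one row per late list with late KO (red) above late WT (blue). Both late KO lists hold an island where both late WT lists hold none at Tbx21, Eomes, Il18r1 and Tcf7, and at Runx1 the called bin lies about 60 kb left of the centre.

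The promoters of Tbx21, of its relative Eomes and of Ifng are shown because Tbx21 and Ifng are central to the Th1 programme. GATA3, the partner named in the title, binds GATA motifs. The sequences are the 250 bases before the start site in RefSeq (build GRCm38.p6), and the mm9 islands were not laid over them. Capitals mark a match to the motif searched on both strands, which is GATA with A or T as the base before it and A or G as the base after it.
Tbx21: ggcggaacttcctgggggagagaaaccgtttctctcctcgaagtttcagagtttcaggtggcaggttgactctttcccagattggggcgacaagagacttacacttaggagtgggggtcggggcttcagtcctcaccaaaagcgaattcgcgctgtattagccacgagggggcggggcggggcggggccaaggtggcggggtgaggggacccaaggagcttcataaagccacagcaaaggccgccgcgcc
Eomes: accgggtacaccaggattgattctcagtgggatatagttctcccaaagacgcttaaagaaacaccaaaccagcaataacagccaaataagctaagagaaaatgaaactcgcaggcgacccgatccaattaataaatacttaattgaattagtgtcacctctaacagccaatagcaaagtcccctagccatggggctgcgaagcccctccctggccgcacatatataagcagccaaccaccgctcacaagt
Ifng: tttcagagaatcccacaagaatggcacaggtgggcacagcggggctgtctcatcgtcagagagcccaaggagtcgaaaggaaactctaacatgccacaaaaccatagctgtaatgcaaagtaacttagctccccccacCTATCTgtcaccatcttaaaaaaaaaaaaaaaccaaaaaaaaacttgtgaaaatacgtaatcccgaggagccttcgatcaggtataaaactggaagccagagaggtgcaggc
One match was found in the Ifng window and none in those of Tbx21 and Eomes, while 8718 of 32851 RefSeq promoters (26.5%) hold one in a window of this length. A match is a string of letters and not a bound site, and the lack of one says nothing of the factor.

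Ifng, the gene of IFN-γ, had no island in its 40-kb window (chromosome 10, 117860001 to 117900000) in any of the 8 H3K27ac lists and none in the 4 late DNase lists. The remaining Th1 windows held no called bin. Runx3, a partner of T-bet, held 34.6 and 26 kb in late KO and 27 and 23.4 kb in late WT. Stat4, which relays IL-12 signals, held 15.8 and 15.8 kb in late KO and 17 and 15.4 kb in late WT. Il12rb2, a chain of the IL-12 receptor, held 27 and 21.2 kb in late KO and 28.2 and 26.4 kb in late WT. Groups overlapped at these genes, and also at Gzmb (late KO 18.8 and 18.2 kb, late WT 16.2 and 19 kb) and at Cxcr3, where late WT 2 alone held an island (0.8 kb).

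A further 2 Th1 windows are named because both late KO lists lay above both late WT lists there. At Ccl5, a chemokine of effector T cells, islands covered 2.6 and 2.2 kb in late KO and 0 and 1.2 kb in late WT. At Fasl, the ligand of the death receptor Fas, they covered 6.8 and 6.6 kb in late KO and 6.0 and 4.6 kb in late WT. In all, 6 of the 12 Th1 windows had the late KO lists above the late WT lists, and none the other way round. Over all 50-kb bins of the genome both late KO lists stood above both late WT lists in 24.2% and below them in 16.4%.

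At the Th2 loci no bin was called (0 of 66 bins tested by limma, with 4 at an unadjusted p under 0.05), against 6.75% of all bins called and 5947 of 39126 at that unadjusted p. The cytokine genes were acetylated over most of their windows in both genotypes. Il5 was covered throughout its 30.0-kb window in all 4 late lists, a ceiling at which a rise could not be seen. Il4 (95.5% covered in late KO, 97.7% in late WT) and Il13 (95.3% and 88.3%) lay near that ceiling. By contrast, 1193 of the higher bins of the genome were at 0 in both late WT lists, and 788 of the lower ones at 0 in both late KO lists. The 2 shares thus come from unlike bins, and 0 of 66 does not show that Th2 loci were spared. The Il4 window held 37.4 and 39.0 kb in late KO and 38.8 and 39.4 kb in late WT, and the Il13 window 28.8 and 28.4 kb in late KO and 25.6 and 27.4 kb in late WT. Gata3 held 37.8 and 36.4 kb in late KO and 37.4 and 38.0 kb in late WT.

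Rad50, whose 3' end carries the control region of the Th2 cytokines, came closest to a call. Its window held 70.4 and 68.2 kb in late KO and 71.0 and 79.2 kb in late WT, and the lowest adjusted p of its bins was 0.0558. That bin, from 53510001, lies in the domain over Il5 and the start of Rad50, away from the 3' end. It was called lower after quantile normalization (limma adjusted p = 0.0449). The domain on the Il13 side, from 53452601, held 36.6 and 34.6 kb in late KO and 32.2 and 39.4 kb in late WT (adjusted p = 0.926). A bin within it, from 53480001, was called lower only in the upper 50% of each list (adjusted p = 0.035). Il10, which encodes a cytokine that restrains inflammation, held 36.2 and 34.8 kb in late KO and 37.0 and 36.8 kb in late WT. Il24, its neighbour and a cytokine gene of Th2 cells, held 26.8 and 27.6 kb in late KO and 25.6 and 29 kb in late WT. Over the 18 windows both late KO lists were above both late WT lists in 4, below them in 4 and overlapped with them in 10. Over all 50-kb bins the late KO lists were above in 24.2% and below in 16.4%. The growth factor genes Csf2 and Il3 had little of the mark, at most 1.4 kb in any late list.

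**Figure D2:**
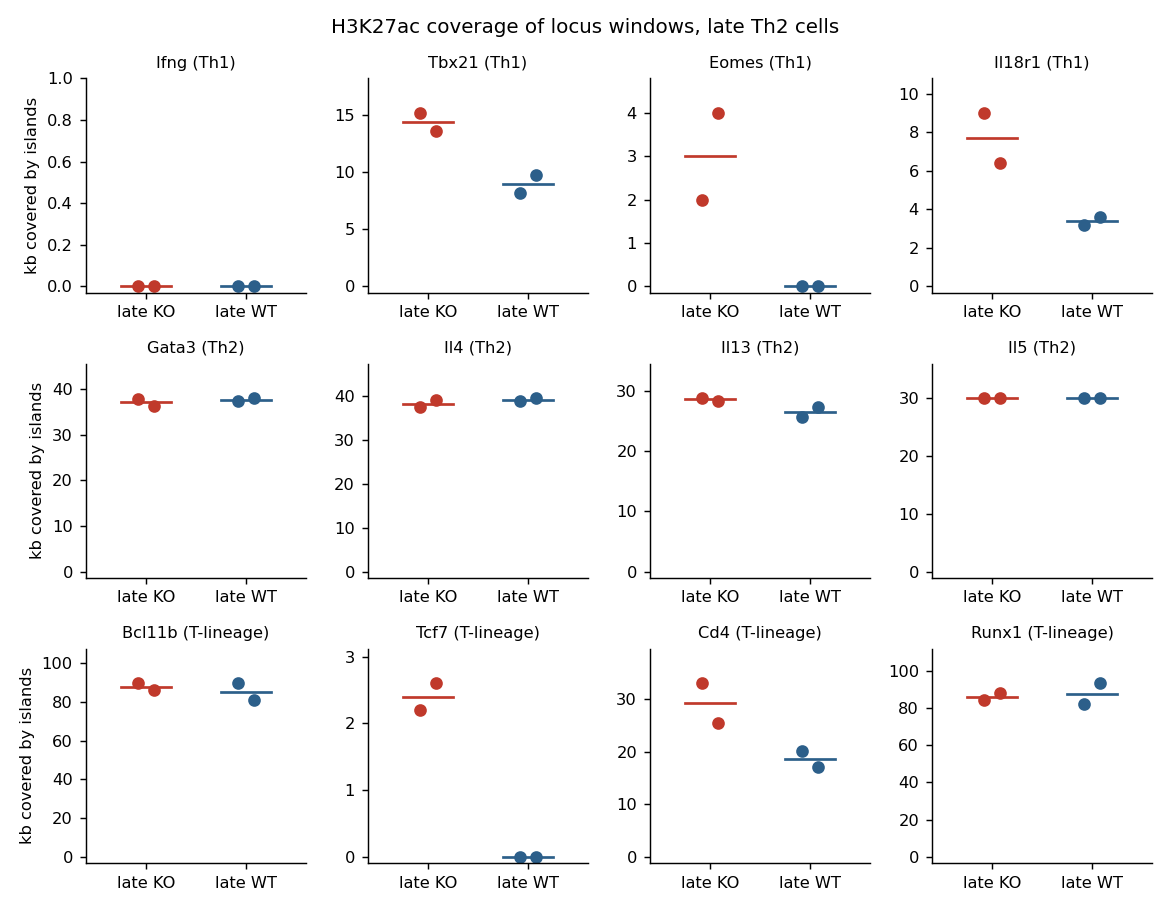
Kb covered by H3K27ac islands in 12 locus windows, late KO (red, left) and late WT (blue, right), one point per library and a line at the mean of each pair. Late KO points lie above late WT points at Tbx21, Eomes, Il18r1, Tcf7 and Cd4, whereas Gata3, Il4 and Il5 overlap and Ifng is at 0 throughout.

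Among T-lineage genes 4 of 144 bins tested were called (2.78%, against 6.75% of all bins), in the windows of Tcf7, Cd4 and Runx1. The Bcl11b window itself held 89.6 and 86.0 kb in late KO and 89.6 and 81.0 kb in late WT. The groups overlapped and none of its 12 bins was called.

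Tcf7 encodes TCF-1, a factor of naive and memory T cells. Its window (chromosome 11, 52050001 to 52110000) held 2.2 and 2.6 kb in late KO and 0 and 0 kb in late WT, against 26.4 and 25.2 kb in early KO and 20.4 and 21.8 kb in early WT. Late KO lists thus held a short island, and late WT lists none, over a locus that all 4 early lists show as a wide block. The bin from 52080001 was called (limma adjusted p = 0.00105), on islands at percentiles 1.5 and 7.4 of the late KO lists. When each list was reduced to the upper 50% of its scores, or lists were cut to equal length, these islands dropped out (log2 difference -0.04 in both cases, adjusted p = 0.996 and 0.989).

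Cd4 encodes the co-receptor that defines helper T cells. Its window (chromosome 6, 124800001 to 124850000) held 33.0 and 25.4 kb in late KO and 20.2 and 17 kb in late WT. Both late KO lists were above both late WT lists, whereas early KO (26.0 and 24.8 kb) and early WT (23.4 and 25.2 kb) overlapped. One called bin, from 124810001, held 5.6 and 5.2 kb in late KO and 3.4 and 2.6 kb in late WT, a log2 difference of 0.72 ± 0.14 (SE, limma adjusted p = 0.0406). The other, from 124820001, held 7.2 and 3.6 kb in late KO and 0.6 and 0 kb in late WT (adjusted p = 0.0237). In late KO 1 a single island of 24.2 kb ran from 124822801 to 124847000, apart from the island in the first called bin. Over that stretch late KO 2 held pieces of 3.2 and 13 kb, and the widest pieces of late WT 1 and late WT 2 were 13.2 and 8.6 kb. Both calls are fragile: the first was lost under 12 of 16 alternatives and the second under 8 of 16, in each case also when either late KO library was left out (adjusted p = 0.198 and 0.243 for the first, 0.153 and 0.074 for the second).

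Runx1, a factor needed for T cell development, was the only locus of the 3 lists with a called loss in this window size. The bin from 92650001 on chromosome 16 was at 0 and 0 kb in late KO and 1.8 and 1.8 kb in late WT (limma adjusted p = 0.00105), with late WT islands at percentiles 7.7 and 19.8. The window as a whole overlapped, at 84.6 and 88.0 kb in late KO and 82.4 and 93.4 kb in late WT.

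The other T-lineage windows had no called bin. Lef1, a relative of TCF-1, held 96.0 and 88.6 kb in late KO and 85.8 and 81.8 kb in late WT. Cd3e, a chain of the T cell receptor complex, held 11.2 and 12.4 kb in late KO and 14.4 and 14.8 kb in late WT. Zbtb7b, which encodes the CD4-lineage factor ThPOK, held 18 and 15.4 kb in late KO and 15.4 and 15.4 kb in late WT. Over the 23 windows both late KO lists stood above both late WT lists in 8 and below them in 2 (Cd3e and Satb1), and 13 overlapped. Over all 50-kb bins these shares were 24.2% above and 16.4% below, though the windows differ in width. Cd8a, the co-receptor of cytotoxic T cells, had no island in any of the 8 lists.

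Among loci of other cell types, Pax5 of B cells had no island in any of the 8 lists. Spi1, which encodes PU.1, a factor of myeloid and B cells that is also found in some helper T cells, was the 1 of 6 such loci with a call (1 of 17 bins, 5.88%, against 6.75% of all bins). Its bin from 90920001 on chromosome 2 held 9.0 and 7.0 kb in late KO and 4.0 and 3.8 kb in late WT, a log2 difference of 0.90 ± 0.09 (SE, limma adjusted p = 0.00266). In the upper 50% of each list by score the call was lost (adjusted p = 0.682). The early difference was of the same size, at 8.0 and 7.8 kb in early KO and 3.8 and 4.0 kb in early WT. The myeloid gene Csf1r held 1.6 and 0 kb in late KO and 0 kb in both late WT lists. The B cell gene Ebf1 held 11.4 and 5.2 kb in late KO and 13.2 and 11.4 kb in late WT, and the NK cell gene Klrb1c 4.6 and 6.6 kb in late KO and 7.2 and 5.4 kb in late WT, both with overlap. The part that other cells play in these results was not tested.

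Farther from the genes changes in both directions appeared. With 50 kb on either side, 5 of 12 Th1, 6 of 18 Th2 and 7 of 23 T-lineage windows held a called bin. The bin from 40550001 on chromosome 1 counts both for Il18r1 among the Th1 and for Il1rl1 among the Th2 windows. The called bins were 5.26%, 5.15% and 3.85% of those tested in the 3 lists, against 6.75% of all bins, and wider windows hold more bins. Bins at this distance may belong to other genes, and those described were chosen after their values were seen. At Nfil3, which encodes a factor that responds to IL-4, 2 adjacent bins on chromosome 13 rose. The bin from 53030001, 22 kb from the gene body, held 3.8 and 4.4 kb in late KO and 0 and 0 kb in late WT (limma adjusted p = 0.00116). At Gata3 the bin from 9810001 on chromosome 2 held 4.6 and 3.4 kb in late KO and 2.2 and 2.2 kb in late WT (adjusted p = 0.028). At Stat6, which encodes the factor that relays IL-4 signals, the bin from 127050001 on chromosome 10 held 1.6 and 1.0 kb in late KO and 0 and 0 kb in late WT (adjusted p = 0.00254). In each of these 3 the late KO lists were above the late WT lists.

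Losses in the flanks lay at Th1 and T-lineage genes as well as at Th2 genes. Near Cd28, the co-stimulatory receptor, the bin from 60850001 on chromosome 1 held 0.6 and 0 kb in late KO and 4.6 and 3.0 kb in late WT (limma adjusted p = 0.0123), and early KO was at 0 in both lists there too, against 3.2 and 5.0 kb in early WT. Near Ets1, a factor of lymphoid cells, the bin from 32470001 on chromosome 9 held 5.2 and 3.4 kb in late KO and 9.0 and 9.0 kb in late WT (adjusted p = 0.0159). Near Cxcr3, a chemokine receptor of Th1 cells, the bin from 98960001 on chromosome X held 0 and 0 kb in late KO and 3.0 and 4.6 kb in late WT (adjusted p = 0.00105). In all 3 the groups did not overlap. Bins near Ccr4, Il4ra, Il12rb2, Ccr7 and Id3 also fell.

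A further 3 loci were placed after their values had been seen, because strong changes of the genome lay there. Dock8, which encodes an exchange factor needed for lymphocyte migration, gained the mark in both stages over its window and the bins named here. Its window on chromosome 19 held 65.8 and 55.8 kb in late KO and 34.4 and 36.4 kb in late WT. The domain from 25143801 within it was not called late. In early cells that domain held 30.2 and 26.2 kb in early KO and 39.2 and 37.2 kb in early WT (limma adjusted p = 0.0584). The bin from 25100001 held 4.6 and 3.8 kb in late KO and 0 and 0 kb in late WT (limma adjusted p = 0.00105), with the same 4 values in the early lists. The bin from 25070001 held 3.6 and 3.8 kb in late KO and 1.6 and 1.6 kb in late WT (adjusted p = 0.0114, but 0.0619 without late WT 1 and 0.0566 without late KO 2), and its islands stood at percentiles 79.3 and 82.1 in late KO and 60.5 and 64.6 in late WT.

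Island width hardly set the genotypes apart. The median width was 2.8 and 2.4 kb in late KO and also 2.8 and 2.4 kb in late WT. Islands of at least 10 kb numbered 1577 and 1252 in late KO and 1350 and 1248 in late WT, and they held 23.3 ± 2.69% of the covered length in late KO and 21.75 ± 1.2% in late WT (SD, n = 2 each). Late KO 1 was the outlying list, with 373 islands of at least 20 kb, against 261 in late KO 2 and 289 and 269 in late WT. The difference between the genotypes was smaller than that between the late KO lists, and 2 lists against 2 cannot give an exact two-sided permutation p below 0.33, so no test was made.

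**Figure D3:**
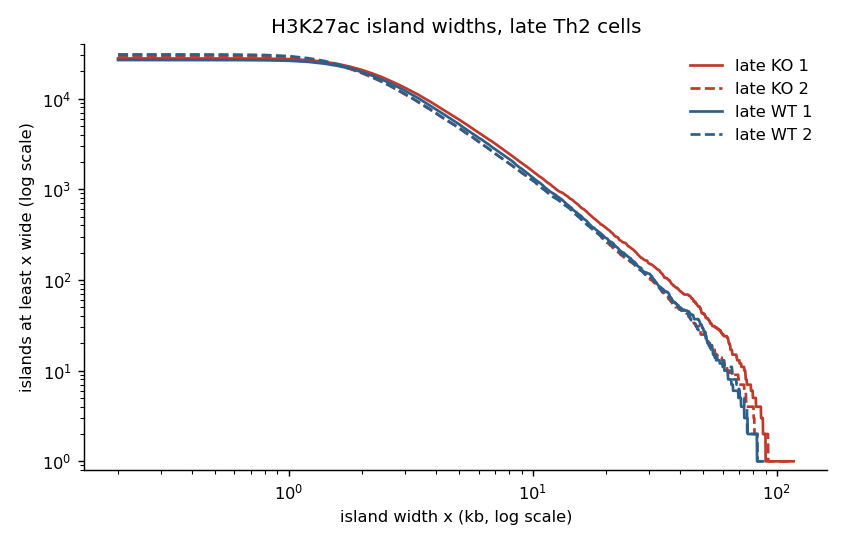
Number of H3K27ac islands at least as wide as the value on the x axis (kb), both axes on a log scale, for the 4 late lists, with late KO in red and late WT in blue. Late KO 1 lies above the other lists from about 3 kb on, late KO 2 runs with the late WT lists over most of the range, and both late KO lists end with an island of 117.2 kb.

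The widest islands were not the same stretch in the 2 genotypes. In both late KO lists the widest was a single island of 117.2 kb on chromosome 15, 66593401 to 66710600. Late WT lists covered 111.4 and 111.2 kb of the same stretch, but their widest single islands there were 51.8 and 61.0 kb, and its covered length was not called (limma adjusted p = 0.766). In late WT the widest islands, of 87.8 and 87.4 kb, lay over Satb1, where late KO lists had islands of 87.6 and 61.0 kb. A gap of a few windows splits an island in SICER, so the covered length was used for the comparison of domains.

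Merging the islands of the 4 late lists gave 31772 regions. Regions with an island in both late KO and neither late WT list (1799) were small, with a median width of 2.2 kb, and 82 reached 5 kb. Those in both late WT and neither late KO list (1292) had the same median of 2.2 kb, and 40 reached 5 kb. Leaving out late WT 1 moved the late WT-only count to 3395, and leaving out late WT 2 moved the late KO-only count to 3039, or to 2736 without late KO 1. The regions of all 4 lists had a median of 3.6 kb and were 71.1% of the total. New regions were less than the whole of the change. Windows covered in both late KO and neither late WT list added up to 7.39 Mb, of which 43.2% lay in late KO-only regions and 50.6% in regions that all 4 lists held, at their edges or in their gaps. The opposite set measured 4.73 Mb, with 45.2% in late WT-only regions and 49.2% in regions of all 4 lists.

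Libraries that did not define these sets gave different shares for the 2 directions. Of the late KO-only regions 75.9% and 63.1% also had an island in the 2 early KO lists, against 13.6% and 17.5% in the early WT lists. Of the late WT-only regions 35.4% and 26.2% had one in the early KO lists and 47.8% and 50.6% in the early WT lists. The late KO-only regions were thus mostly marked in early KO cells too, while the late WT-only regions split less sharply. DNase islands lay in 24.3% and 22.5% (late KO) and 15.2% and 27.5% (late WT) of late KO-only regions. They lay in 4.4% and 4.6% (late KO) and 27% and 43.3% (late WT) of late WT-only regions. The late KO DNase lists were short, with 25.9 and 26.2 Mb against 44.7 and 52.4 Mb in late WT, and in the regions of all 4 lists they also gave lower shares, 60.4% and 57.0% in late KO against 78.3% and 87.5% in late WT.

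**Figure D4:**
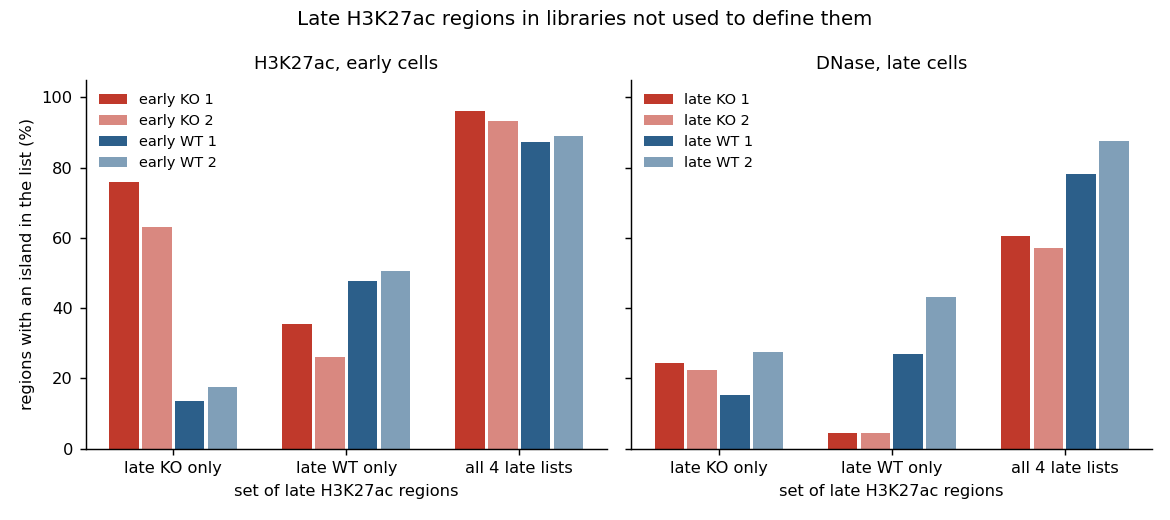
Percent of late H3K27ac regions (late KO only, late WT only, all 4 late lists) that hold an island in the early H3K27ac lists (left) and in the late DNase lists (right), one bar per list, KO in red and WT in blue, with replicate 2 in the paler shade. Late KO-only regions are held by 75.9% and 63.1% in early KO, against 13.6% and 17.5% in early WT.

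Broad domains were defined as merged regions of the 8 H3K27ac lists with an island of at least 10 kb in some list, which gave 2343 with a median width of 15.8 kb. Between late KO and late WT 3.97% of them were called by limma, 2.48% higher (58 domains) and 1.49% lower (35 domains). The called domains mostly grew or shrank rather than appearing or vanishing: 49 of the higher and 33 of the lower ones were covered in all 4 late lists. Leaving out any 1 late library cut the counts to between 20 and 36 higher and between 11 and 12 lower domains. The median change was 6.7 kb in the higher and -5.4 kb in the lower domains. An island of at least 10 kb lay in both late KO and neither late WT list in 108 domains, in both late WT and neither late KO list in 53, and in all 4 late lists in 815.

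**Figure D5:**
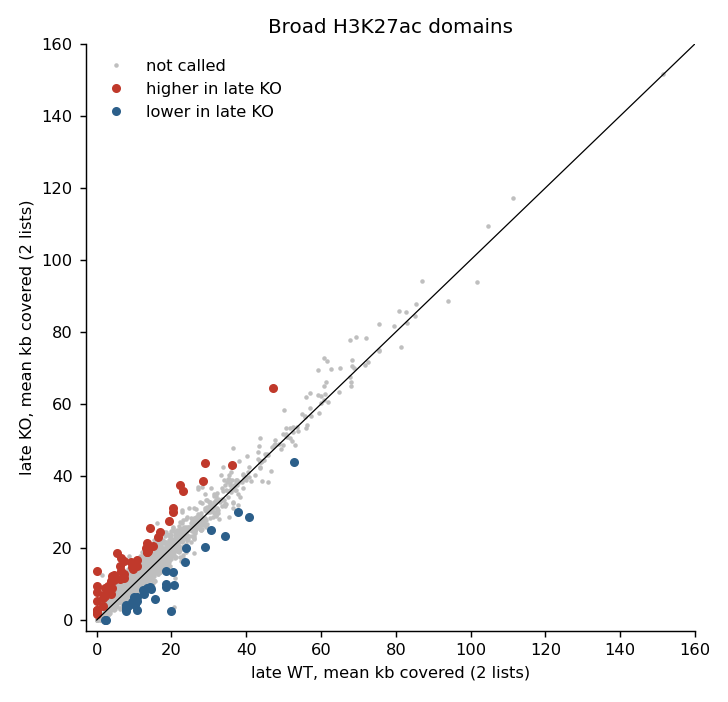
Mean kb covered in the 2 late KO lists (y axis) against the 2 late WT lists (x axis) for the 2343 broad domains, with those called higher in late KO in red, those called lower in blue and the line of equal coverage. Most domains lie near the line, and the called ones range from a few kb to a late KO mean of 64.4 kb.

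The domains named are those with the largest change in kb among the called ones. A domain of 78.6 kb on chromosome 6 from 108430001 held 67.2 and 61.6 kb in late KO and 48.4 and 45.8 kb in late WT, a log2 difference of 0.41 ± 0.07 (SE, limma adjusted p = 0.0154). On chromosome 8 from 26166001 islands covered 20.4 and 17 kb in late KO and 5.4 and 5.4 kb in late WT (adjusted p = 0.00104). A domain on chromosome 4 from 140387001 was absent in late WT, with 15.4 and 12 kb in late KO and 0 and 0 kb in late WT. It was narrower in early KO, at 3.2 kb in both lists, and early WT held none. In all 3 the groups stood well apart. On chromosome 1 from 43573201 and chromosome 10 from 79510801 coverage rose by 14.7 and 12.5 kb. The calls on chromosome 6 and on chromosome 1 from 43573201 were lost when any 1 of the late libraries was left out. That on chromosome 8 held under all alternatives that gave a value. The chromosome 4 domain counts as broad only through late KO 1, whose island there measured 15.4 kb, against 9.2 kb in late KO 2. Domains were fixed from all 8 lists, so its call under alternatives is no sign of stability.

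Hdac4, which encodes a histone deacetylase and is a locus placed after its values were seen, moved in opposite directions in the 2 stages. The domain over its end (chromosome 1, 93829801 to 93893600) held 41.2 and 33.6 kb in late KO and 24.4 and 20 kb in late WT, a log2 difference of 0.71 ± 0.15 (SE, limma adjusted p = 0.0426). In early cells it held 14.8 and 14 kb in early KO and 62.6 and 43.8 kb in early WT, and the interaction passed the test (adjusted p = 0.00149). The late call was lost when any one of the late libraries was left out, with adjusted p from 0.0829 to 0.242. At Fli1, which encodes an ETS factor and was likewise placed afterwards, a domain on chromosome 9 from 32291601 held 38.4 and 39.0 kb in late KO and 29.4 and 27.6 kb in late WT (adjusted p = 0.0134). Early cells showed the same direction, with 39.6 and 40.0 kb in early KO and 30.0 and 28.8 kb in early WT (limma adjusted p = 0.00263). The interaction was not called there (adjusted p = 0.696).

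Domains that shrank were led by one on chromosome 14 from 67649201, with 2.4 and 2.6 kb in late KO and 21.2 and 18.6 kb in late WT (limma adjusted p = 0.00104). On chromosome 19 from 29204201 islands covered 6.4 and 5.4 kb in late KO and 16.6 and 14.8 kb in late WT (adjusted p = 0.000885). On chromosome 17 from 84745001 they covered 10.4 and 7.8 kb in late KO and 19.4 and 17.4 kb in late WT (adjusted p = 0.00526).  The other 3 named domains, on chromosome 1 from 108435601, chromosome 14 from 25967801 and chromosome 12 from 17373601, fell by 11.0 to 12 kb. All 6 were also called lower in early KO, with log2 differences from -1.62 to -0.39 and adjusted p from 0.000827 to 0.013. Of the last 3, the first was lost without late KO 1 or late WT 2 (adjusted p = 0.0536 and 0.056), the second without any 1 late library (0.102 to 0.232), and the last without late KO 1, late WT 2 or late KO 2 (0.0623, 0.0642 and 0.122). In the upper 50% of each list by score the call on chromosome 17 alone of these 6 was kept.

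Of 43 broad domains over the listed genes 1 was called (2.33%, against 3.97% of all broad domains), that of Tcf7 with 2.2 and 2.6 kb in late KO and 0 and 0 kb in late WT, and the median log2 difference of the 43 was 0.0. The Gata3 domain held 36.6 and 36.6 kb in late KO and 39.6 and 38.6 kb in late WT (limma adjusted p = 0.531). The domain over Il4 and Il13 held 52.2 and 52.8 kb in late KO and 53.8 and 54.0 kb in late WT (adjusted p = 0.621). The domain over Il5 and the start of Rad50 held 39.6 and 37.6 kb in late KO and 43.6 and 44.8 kb in late WT, and missed the threshold (log2 -0.23 ± 0.05, adjusted p = 0.0615). In the domains of Gata3, of Il4 and Il13, and of Il5 and Rad50 both late KO lists lay below both late WT lists. The differences were a few kb and none was called.

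The late and early effects of deletion were compared in the same fit, and these 2 contrasts share no library. Late KO differed from late WT in 6.75% of bins and 3.97% of broad domains, and early KO from early WT in 14.6% and 16.3%. The late difference minus the early one was called in 10.1% of bins and 3.12% of domains. Of the 93 broad domains called late, 30 were also called early in the same direction and 6 in the opposite one, and in 18 the interaction passed the test. Of the bins named at the listed loci, the interaction passed the test at Runx1 and the Cd4 bin from 124820001. It also passed at Tbx21 and Tcf7, but there it restates the late difference, because all 4 early lists were at 0 at Tbx21 and full at Tcf7. Eomes and Il18r1 gained the mark at both stages. Among the domains of listed genes described above, it passed for Tcf7, for Satb1 (log2 -0.31, adjusted p = 0.0328) and for Il5 and the start of Rad50 (log2 -0.39, adjusted p = 0.0386), where islands covered 27.4 and 29.2 kb in early KO and 26.4 and 25.8 kb in early WT.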

How the data were processed

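Base calling with CASAVA 2.18, alignment with Bowtie2 and island calling with SICER 1.1 on mm9 are named per the submitters' processing notes. The deposited files list islands on a 200-bp grid with a score per island, which is the authors' own value and was used only to rank or select islands within a list. Lists were called per library, counts are not given in the sources used here, and the depth is unknown.

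Covered kb per 10-kb bin and per broad domain were taken as log2(kb + 0.5), centred per list (median of bins that all 8 H3K27ac lists cover), and fitted over all 4 groups with limma 3.58.1 in R 4.3.3 (lmFit, eBayes with a trend), adjusted over all bins or domains. The fits were tested on simulated data with normal noise and neither a floor at 0 kb nor a ceiling. That test therefore does not cover calls at the floor. Members, gene lists and tests were chosen with earlier results of these data known. Named were Bcl11b, Gata3, Il4, Il13, Il5, Ifng, Tbx21, Eomes, Runx3 and Tcf7, every locus with a called bin, up to 4 other loci per list in list order, and the 6 called broad domains with the largest rise and the 6 with the largest fall in kb. Other loci named were chosen after their values were seen. The values of 2 loci that enter the counts are not reported here.

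Gene bodies were placed on mm9 by general knowledge. In a gene table of GRCm38.p6 all 62 lay on the same chromosome, 42 of 42 neighbouring pairs had the same order, and 16 pairs under 2 Mb apart had spacings within 3 kb. No coordinates were converted. Alternatives were no centring, quantile normalization, a pseudocount of 2 kb, bins covered in 1 library, the upper 50% of each list, equal list lengths, the late libraries alone, a replicate block, 50-kb bins, other width limits, merging within 1 kb, wider flanks, and each library left out. Python 3.11.15 with numpy 2.4.6, pandas 2.3.3 and matplotlib 3.10.9 was used.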

Additional observations from a re-analysis of the deposited data

Results flagged for a closer look

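At the places below the effect of deletion differed between late and early cells by limma's interaction test, and the values are the late difference (KO minus WT) minus the early one on the log2(kb + 0.5) scale. Bins at 0 in one genotype depend on the pseudocount. The Tbx21 bin from 96960001 gave 2.38, which restates the late KO islands, since all other lists were at 0. The Tcf7 bin from 52080001 gave 2.53, which restates the late difference, since all 4 early lists were full. The Cd4 bin from 124820001 gave 3.65 (adjusted p = 0.0267). The Runx1 bin from 92650001 gave -1.47 (adjusted p = 0.0114), with a loss in early KO as well (early log2 -0.77).

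Among broad domains, that of Hdac4 on chromosome 1 from 93829801 gave 2.49 (adjusted p = 0.00149), with opposite directions in the stages. The domain on chromosome 8 from 26166001 gave 1.24 (adjusted p = 0.0233), and the one on chromosome 10 from 79510801 gave 0.68 (adjusted p = 0.00903). The Tcf7 domain from 52073801 gave 2.22 (adjusted p = 0.00905), the domain of Rad50 and Il5 from 53506201 -0.39 (adjusted p = 0.0386), and the Satb1 domain from 51874401 -0.31 (adjusted p = 0.0328).

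In the flanks of loci, the bin near Il12rb2 from 67190001 gave -4.25 (adjusted p = 0.00286), near Cxcr3 from 98960001 -3.34 (adjusted p = 0.00291), near Id3 from 135650001 -1.94 (adjusted p = 0.00521), near Ccr4 from 114450001 -1.77 (adjusted p = 0.0182), and near Ccr7 from 98970001 -1.64 (adjusted p = 0.00609). The causes were not tested.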

How the results depend on the processing

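Called bins numbered 814 higher and 532 lower in the upper 50% of each list and 786 and 517 in 50-kb bins, against 1561 and 1081. With 1 library left out they ranged from 1027 to 1960 higher and from 542 to 1221 lower. The interaction was called in 3966 bins, and in 2198, 1679 and 2431 with the upper 50%, 50-kb bins and the replicate block.

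Higher broad domains numbered 227 with islands of at least 5 kb and 33 with at least 20 kb, and lower ones 170 and 13. With 1 library left out they ranged from 20 to 90 higher and from 11 to 43 lower. Late KO-only and late WT-only regions numbered 601 and 455 in the upper 50%, and with 1 late library left out 1915 to 3039 and 1439 to 3395.

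Nothing in the labels pairs same-numbered replicates. Their deviations from the group means correlated at 0.052 (late) and -0.024 (early), which from so few libraries cannot settle whether they were paired. The replicate block gave 1138 higher and 761 lower bins and 39 higher and 18 lower broad domains. Calls lost with it included the Dock8 bin from 25070001 and the Cd4 bin from 124810001 (limma adjusted p = 0.0709 and 0.172). The domain on chromosome 14 from 25967801 was lost as well (adjusted p = 0.0699).

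Th1 loci with a called bin numbered 1 with 50-kb bins and 5 with 50-kb flanks, and 2 to 4 with 1 library left out. Th2 loci numbered 1 with quantile normalization (Rad50), 1 in the upper 50% (Rad50), 2 with equal list lengths (Gata3 and Csf2, higher), 6 with wider flanks, and 0 to 3 with 1 library left out. The 3 came without late WT 2 (Gata3 and Il24 higher, Maf lower). T-lineage loci numbered 0 in the upper 50%, 7 with wider flanks and 3 to 6 with 1 library left out, the 6 without late WT 1. The Tcf7 bin turned to -0.04 in the upper 50% and with equal lengths.

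The Tbx21 bin gave no value in the upper 50%, with equal lengths, and without late KO 1 or late KO 2, because fewer than 2 lists then covered it. Its call elsewhere is thus no sign of stability. In the upper 50% the Tbx21 bins from 96970001 and 96980001 were called higher instead (log2 3.52 and 1.03, limma adjusted p = 0.000596 and 0.00134). These values depend on the cut, since islands below it count as 0 kb. Eomes, Il18r1 and Runx1 kept the call in every alternative that gave a value for the bin, with limma adjusted p up to 0.0269. The bins of Eomes and Runx1 gave none in the upper 50%, where their islands fell below the cut in every list. Bins of 50 kb are not among these alternatives, and with them only 1 Th1 locus held a call. The cause of the other changes was not tested.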
